A study of Rattus norvegicus with 9 samples.

Results

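The genes described here are the 2 adiponectin receptors, the catalytic and regulatory subunits of AMP-activated protein kinase (AMPK) except Prkag3, and 2 proteins of the kinase complex that switches AMPK on. They were taken by name: Adipor1, Adipor2, Prkaa1, Prkaa2, Prkab1, Prkab2, Prkag1, Prkag2, Stk11 and Cab39, which are 10 of the 35658 genes or unnamed transcripts on the array. The choice was by name and not by a threshold on a value. RNA came from peripheral blood mononuclear cells (PBMC), which are lymphocytes and monocytes recovered on a Ficoll gradient, drawn from the saphenous vein of fed male Wistar rats aged 6 months. The control group was 4 animals on standard chow, and the cafeteria group was 5 animals offered palatable high-energy foods from 2 months of age, for 4 months in all, which is a dietary way of making rats obese. Each animal was hybridised to its own array in the Cy5 channel against a Cy3 pool of RNA from all groups, so a value is a log2 ratio of 1 animal to that pool and 0 means equal to the pool. PBMC are a mixture, and in bulk RNA fewer cells of a type and less RNA per cell cannot be told apart.

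Adiponectin is a hormone released by fat cells, and its blood level is known to be lower in obesity. It acts through the membrane proteins AdipoR1 and AdipoR2, of which AdipoR1 is linked mainly to AMPK and AdipoR2 mainly to the nuclear receptor PPAR-alpha. AMPK is a trimer of a catalytic alpha, a scaffolding beta and a nucleotide-sensing gamma subunit. It is switched on when AMP and ADP rise, by phosphorylation of alpha by the kinase LKB1 (Stk11) held in a complex with STRAD and MO25 (Cab39), or by CaMKK2. Active AMPK favours fatty acid oxidation and glucose uptake and restrains fatty acid, sterol and protein synthesis. In lymphocytes and monocytes it is known to adjust metabolism during activation.

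On the 9 arrays, 58.8% to 66.7% of non-control spots had Cy5 signal well above background. In the PBMC, markers of T cells (12 genes), B cells (8 genes), cytotoxic T and NK cells (10 genes) and monocytes (9 genes) were measured above background. So were 11 erythroid and 7 platelet genes, which mark red cells and platelets rather than mononuclear cells. Of 7 adipocyte genes, 3 were measured above background (Fabp4, Cfd and Retn), while Lep, Adipoq, Plin1 and Cidec were not.

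All but 1 of the 10 genes were measured in these cells. Prkaa2, the alpha 2 catalytic subunit that muscle and heart are known for, was not well above background on any of the 9 arrays. Averaged over its 10 spots on each array, Cy5 was 1.20 to 1.44 times the local background (chromosome 5, 126007911 to 126007970 on the rn4 build). Prkaa2 is given no fold change. The other catalytic subunit, Prkaa1, was well above background on all 9 arrays, with a median of 11.9 times background. The 9 measured genes had 12 probes, and 11 of these were above background on every array. The exception was the second Stk11 probe, above background on 2 of 4 control and 3 of 5 cafeteria arrays. Because probes differ in how well they bind, these multiples show detection and do not rank the genes.

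**Figure D1:**
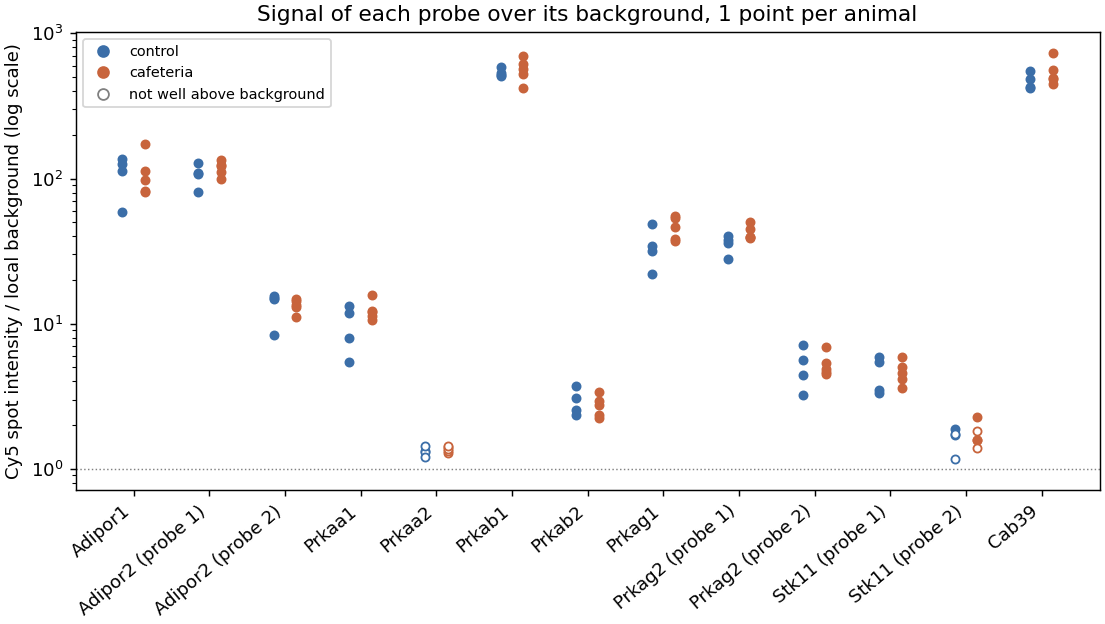
Cy5 spot intensity divided by local background (log axis, no unit) for the 13 probes of the 10 genes, with 1 point per animal. Open points mark spots that were not well above background, which are all 9 arrays of Prkaa2 and 4 arrays of the second Stk11 probe.

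The comparison asked whether these genes differ in blood cells between cafeteria-fed and chow-fed rats. None of the 12 probes passed the threshold, a Benjamini-Hochberg adjusted p under 0.05 over all 25808 probes in limma's moderated test. Over all probes 2 passed, a share of 0.00775%, and with 1 probe per gene 1 of 22086 genes, a share of 0.00453%. The adjusted p of each of the 12 probes was at least 0.997. At an unadjusted p under 0.05 there was 1 of the 12 probes, that of Prkag1, beside 4.4% of all probes (1136). The groups overlapped on all 12 probes, whereas 1.27% of all probes (329) had groups that did not overlap. With 1 probe per gene, 5 of the 9 measured genes were lower and 4 higher in cafeteria animals. Their median log2 fold change was -0.028, beside 0.010 over all 22086 genes, and their median size regardless of sign was 0.037, beside 0.061. The 95% interval of each of the 12 probes lay between -0.56 and 0.38. A fall or rise of the size that the interval allows was therefore not resolved with 4 and 5 animals, and equal expression is not shown.

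**Figure D2:**
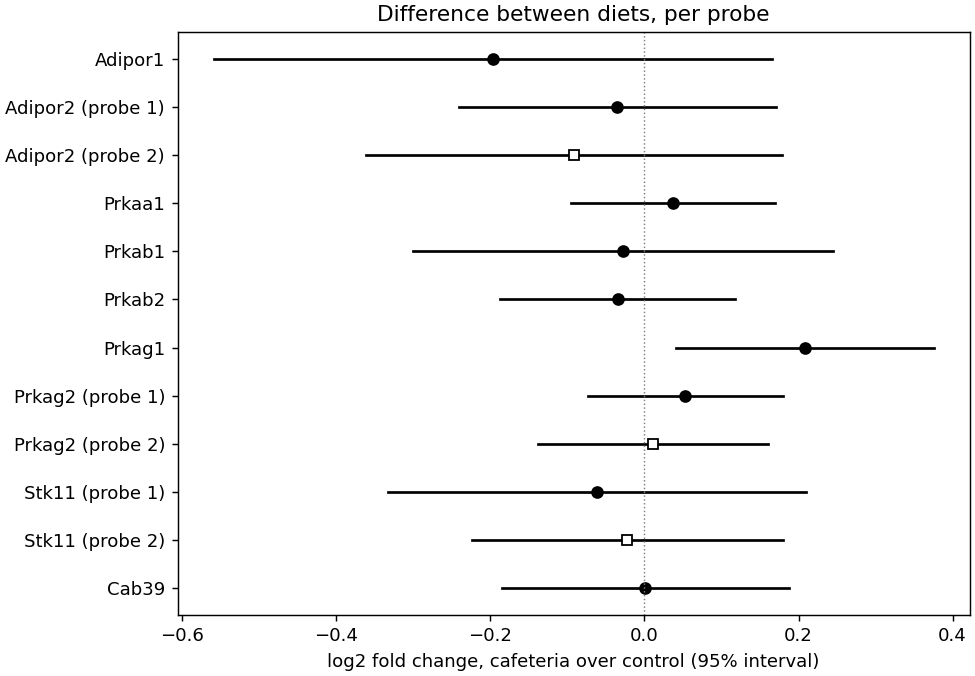
Log2 fold change of cafeteria over control for the 12 measured probes, with the 95% interval from limma. Filled circles are the probe that stands for a gene (highest mean signal) and open squares its other probe. The interval of Prkag1, 0.042 to 0.38, is the only 1 that does not reach 0, and it is not adjusted for the number of probes.

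Of the receptors, Adipor1 had the widest spread (chromosome 13, 47379172 to 47379231). Its log2 ratios were -0.096, 0.43, -0.40 and -0.065 in controls 1, 4, 7 and 13, and -0.36, -0.34, -0.40, -0.15 and 0.12 in cafeteria animals 1, 4, 7, 10 and 13. Control 4 stood highest, above every cafeteria animal, and control 7 was about as low as the lowest cafeteria animal. The other controls lay within the cafeteria range, so the groups overlapped. The difference was -0.20 (SE 0.16, interval -0.56 to 0.17, unadjusted p = 0.255, adjusted p = 0.997 in limma). It was -0.042 without control 4 and -0.32 without control 7, so single controls moved it by more than 1.5 times. The spread within groups (0.28) was larger than that of 89.3% of all probes.

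Platelet genes were highest and lowest in the same animals as Adipor1. The mean log2 ratio of the 7 measured genes was -0.067, 1.09, -0.37 and 0.22 in controls and -0.62, -0.084, -0.79, 0.39 and 0.25 in cafeteria animals. Control 4 was highest and cafeteria animal 7 lowest. All 7 genes had lower means in cafeteria animals, and 5 of 7 were lower with slide as a block. At an unadjusted p under 0.05 in limma there were 0 of the 7, beside 4.08% of all genes. Their part in the result was not tested.

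Adipor2 was measured by 2 probes on chromosome 4, and neither differed between the diets beyond the spread. The first (155664143 to 155665615, a stretch of 1473 bases on the genome) read 0.076, 0.15, -0.14 and -0.097 in controls and -0.25, 0.16, 0.013, -0.057 and -0.061 in cafeteria animals. The difference was -0.035 (SE 0.092, interval -0.24 to 0.17). The second (155663626 to 155663679) read 0.25, 0.063, -0.41 and 0.16 in controls and -0.018, -0.20, -0.014, -0.052 and -0.091 in cafeteria animals. All 5 cafeteria animals lay inside the control range, which control 7 stretched downwards. The difference was -0.092 (SE 0.12, interval -0.36 to 0.18). Without control 7 this second probe was the 1 member probe at an unadjusted p under 0.05. The difference on the first probe turned to 0.016 without control 4 and to 0.017 without cafeteria animal 1.

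Prkaa1, the alpha 1 subunit and the main catalytic form in blood cells, was among the steadiest transcripts measured (chromosome 2, 54358841 to 54358900). It read 0.088, -0.00077, -0.026 and 0.020 in controls and 0.064, 0.090, 0.072, -0.079 and 0.14 in cafeteria animals. Only 10.7% of all probes had a smaller spread within groups. The difference was 0.037 (SE 0.059), and its interval in this fit, -0.095 to 0.17, runs from 0.94 to 1.12 times the control level. The difference was 0.016 to 0.071 with single animals left out, and -0.061 (SE 0.13) in the fit with slide as a block. With median centring it was 0.14 (SE 0.16). On the authors' values it was 0.22 (SE 0.10) as deposited and 0.099 (SE 0.089) after centring.

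The beta subunits carry the site that binds glycogen and hold the trimer together. Prkab1 (chromosome 12, 41851182 to 41851241) read -0.22, -0.082, -0.016 and -0.080 in controls and -0.0015, -0.33, -0.15, 0.24 and -0.40 in cafeteria animals. Its group means were close, -0.098 ± 0.084 (SD, n = 4) and -0.13 ± 0.26 (SD, n = 5), with cafeteria animals on both sides of all controls: 2 above the highest and 2 below the lowest. The difference was -0.028 (SE 0.12, interval -0.30 to 0.25). The sign turned with slide. On the pair of slides that held 1 animal of each diet it was 0.21 and 0.32; a fit that blocked on slide gave 0.27 (SE 0.13).

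Prkab2 (chromosome 2, 192510528 to 192510587) lay between 0.017 and 0.15 in controls and between -0.059 and 0.18 in cafeteria animals. Its probe was dim, at a median of 2.73 times background. The difference was -0.035 (SE 0.068, interval -0.19 to 0.12), and it was -0.067 to -0.0073 with single animals left out.

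The gamma subunits bind AMP, ADP and ATP, and Prkag1, the widely expressed gamma 1 form, was the member whose groups lay furthest apart relative to their spread. Its probe (chromosome 7, 137583141 to 137583200) read -0.053, -0.091, -0.28 and 0.056 in controls and 0.11, 0.011, 0.22, 0.098 and 0.15 in cafeteria animals. All 5 cafeteria animals were above the control mean and 4 were above the highest control, control 13, while cafeteria animal 4 lay within the control range. The means were -0.091 ± 0.14 (SD, n = 4) and 0.12 ± 0.076 (SD, n = 5). The difference was 0.21 (SE 0.075, interval 0.042 to 0.38), a fold of 1.16 (1.03 to 1.30), with an unadjusted p of 0.0194 and an adjusted p of 0.997 in limma. Higher in cafeteria with an unadjusted p under 0.05 were 1.54% of all probes.

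The Prkag1 difference depended on control 7, the lowest animal. Without it the value was 0.15 (unadjusted p = 0.0563, adjusted p = 0.926 in limma), and without any other single animal it was 0.18 to 0.26. Within the 2 shared slides it was 0.17 and 0.042, and a fit that blocked on slide gave 0.10 (SE 0.13). On the authors' deposited values it was 0.44, and 0.32 after each array was centred on its median. It was 0.13 (SE 0.068) with arrays weighted and 0.30 (SE 0.22) with median centring of the log2 ratios. Over all alternatives of processing and slide it ran from 0.042 to 0.44.

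Several marker lists also had higher means in cafeteria animals. B cell genes were higher for 8 of 8, with list means of -0.25 to 0.15 in controls and -0.20 to 0.41 in cafeteria animals. Cytotoxic T and NK genes were higher for 8 of 10, with list means of -0.48 to -0.073 and -0.21 to 0.44, but for only 4 of 10 with slide as a block. Erythroid genes were higher for 10 of 11, with list means of -0.70 to -0.26 and -0.46 to -0.095. Conversely, 11 of 12 T cell genes were lower, with list means of -0.23 to 0.15 and -0.47 to 0.14. Monocyte genes were lower for 6 of 9 and neutrophil genes for 5 of 7. At an unadjusted p under 0.05 in limma were 6 of 11 erythroid and 3 of 10 cytotoxic T and NK genes. So were 2 of 12 T cell and 1 of 8 B cell genes, beside 4.08% of all genes. The monocyte and neutrophil lists had 0. With slide as a block, B cell genes were again higher for 8 of 8, erythroid genes were higher for 11 of 11, and T cell genes were lower for 10 of 12. The part of these lists in the Prkag1 value was not tested.

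Prkag2, the gamma 2 form known for mutations that cause heart disease, was steady on both probes, on chromosome 4. The first (5666961 to 5667020) lay between -0.12 and -0.0094 in controls and between -0.080 and 0.076 in cafeteria animals, with a difference of 0.053 (SE 0.057, interval -0.074 to 0.18). Only 7.32% of all probes varied less within groups. The difference was 0.030 without cafeteria animal 13 and 0.0049 with slide as a block. The second (5644033 to 5649788, a stretch of 5756 bases on the genome) gave 0.011 (SE 0.067, interval -0.14 to 0.16).

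**Figure D3:**
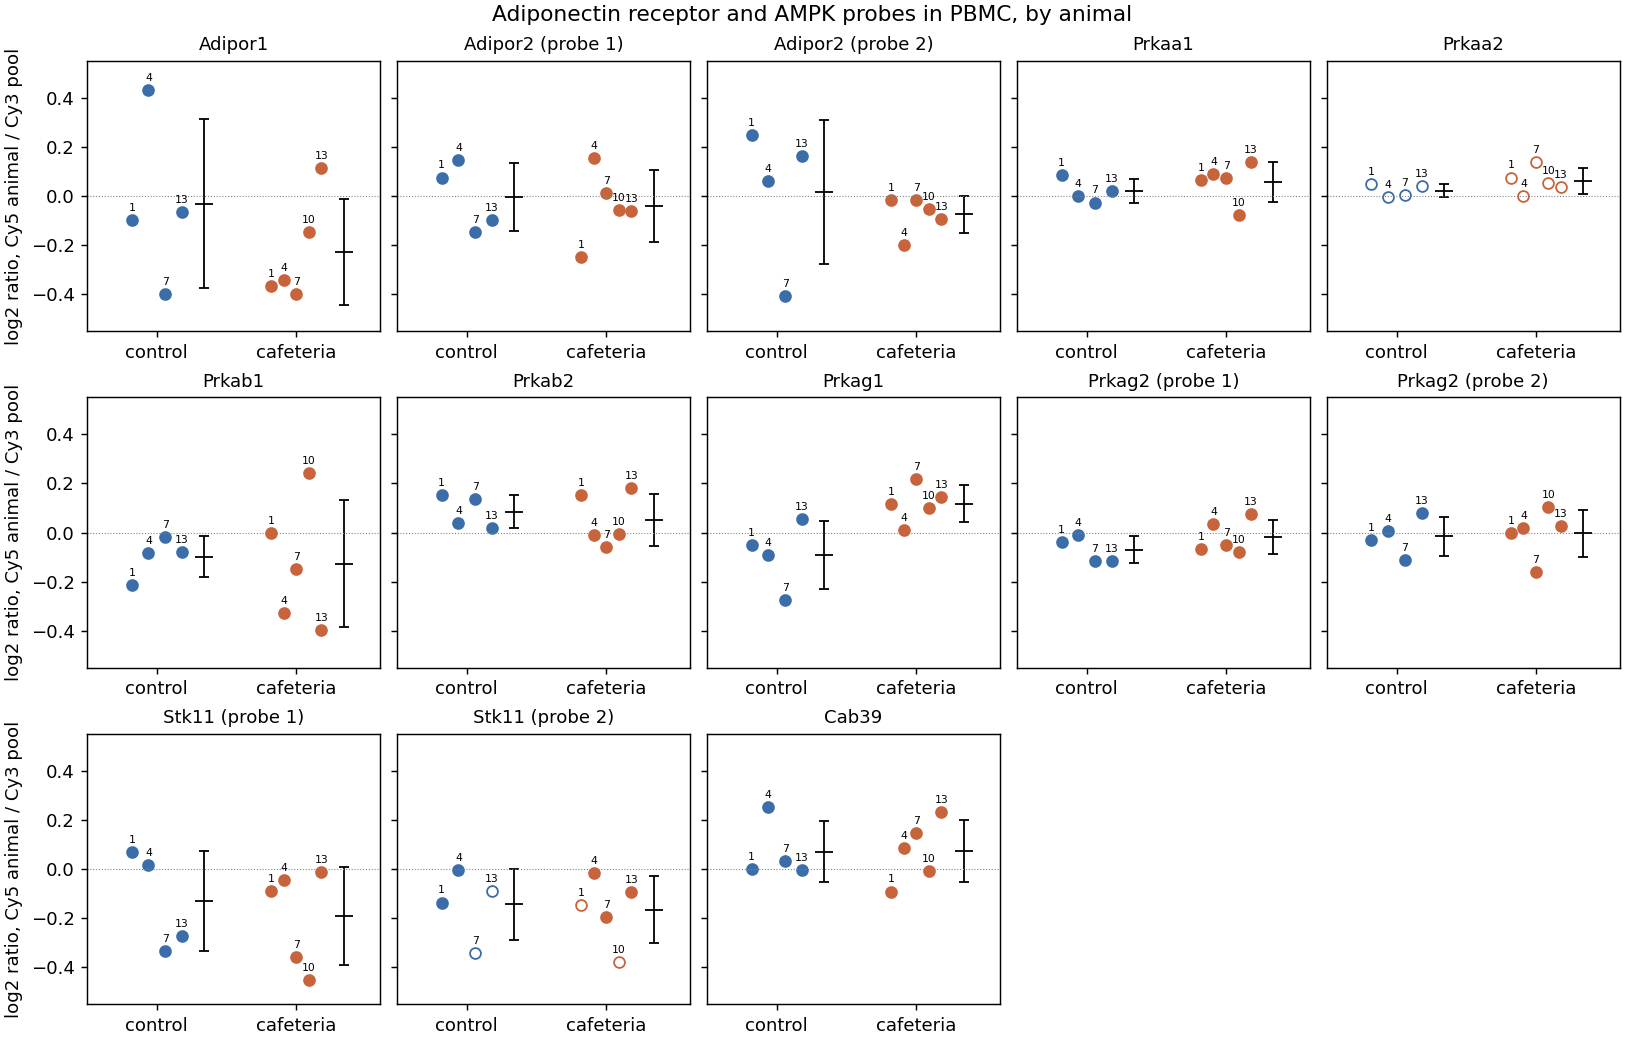
Log2 ratio of each animal (Cy5) to the reference pool (Cy3) for the 13 probes, with the replicate number beside each point, the mean and the SD as bars beside each group, and open points where the spot was not well above background. Control and cafeteria points overlap in every panel, and for Prkag1 cafeteria animals 1, 7, 10 and 13 lie above all 4 controls.

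Stk11, which encodes LKB1, had 2 probes on chromosome 7, and within each diet the same animal was lowest on both. The first (11102442 to 11102501) read 0.070, 0.017, -0.33 and -0.27 in controls and -0.092, -0.046, -0.36, -0.45 and -0.012 in cafeteria animals. Controls 7 and 13 and cafeteria animals 7 and 10 were low, so both groups held high and low animals. The difference was -0.062 (SE 0.12, interval -0.33 to 0.21). It turned to 0.0048 without control 1 and 0.0028 without cafeteria animal 10. The dimmer second probe (11102849 to 11102908), at 1.70 times background, gave -0.022 (SE 0.090), with control 7 (-0.34) and cafeteria animal 10 (-0.38) again lowest. On this probe neither of these 2 animals was well above background, at 1.17 and 1.39 times. Their low values there are therefore weak support for the first probe.

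Cab39, the MO25 scaffold that stabilises LKB1, had nearly equal means of 0.071 ± 0.12 (SD, n = 4) and 0.072 ± 0.13 (SD, n = 5) at chromosome 9, 84588529 to 84588588. It read 0.00090, 0.25, 0.033 and -0.0037 in controls and -0.092, 0.086, 0.15, -0.010 and 0.23 in cafeteria animals. Control 4 stood apart from the other controls. The difference was 0.0013 (SE 0.083, interval -0.18 to 0.19), and its sign turned under several alternatives.

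The balance between paired isoforms was compared as the difference of their log2 ratios in each animal, in 3 pairs chosen after the values were seen. Prkag1 minus Prkag2 was higher by 0.16 in cafeteria animals (two-sided exact permutation test over 126 splits, p = 0.111, adjusted over the 3 pairs 0.333). Adipor1 minus Adipor2 was lower, with a difference of -0.16 (exact p = 0.381, adjusted 0.572), and it was -0.25 to -0.058 with single animals left out, the smallest size without control 4. Prkab1 minus Prkab2 differed by 0.0067 (exact p = 0.944). The groups overlapped for all 3 pairs, and the smallest p this design allows is 0.00794. A shift in isoform balance was not detected with these 9 animals.

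**Figure D4:**
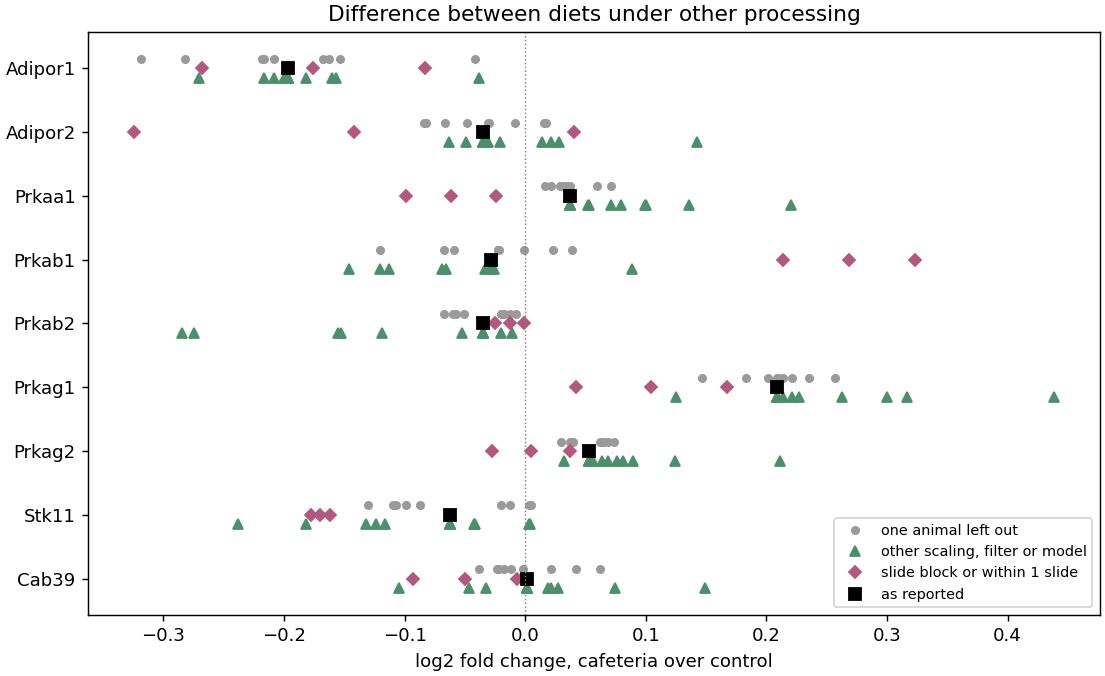
Log2 fold change of cafeteria over control for the 9 measured genes as reported (squares), with 1 animal left out (circles), with other scaling, filter or model (triangles), and with slide as a block or within 1 slide (diamonds). Adipor1 and Prkab2 stay below 0 and Prkag1 above 0 at every point shown, while the Adipor2, Prkaa1, Prkab1, Prkag2, Stk11 and Cab39 points lie on both sides.

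Over the 9 arrays, the gene whose log2 ratios followed Adipor1 most closely among 9317 named genes was Capn2, a calcium-dependent protease (Pearson r = 0.97), then Atad1 (0.96). The r with Capn2 stayed between 0.91 and 0.99 under the alternatives and with animals left out. The closest to Prkag1 were Wdr35 (0.95) and Dnajc4 (0.94), to Cab39 Gchfr (0.97) and Sh3bgrl1 (0.94), and to Stk11 Casp1 (0.94) and Scnm1 (0.91). Adipor2 was closest to Rbm18 (0.93) and Ipo7 (0.92), Prkab2 to Galk1 (0.96) and Dio3 (0.93), and Prkag2 to Sft2d1 (0.90) and Tmem121b (0.88). Prkaa1 was closest to Cnot3 (0.90) and Serping1 (0.86), and Prkab1 to Tceanc2 (0.86) and Fcer2 (0.86). These are the highest of many correlations over few arrays that share a reference pool, so they describe these arrays only. Under other processing the r of Prkaa1 with Cnot3 ran down to -0.18 and that of Prkab2 with Galk1 to -0.067. The lowest r was 0.21 for Adipor2 with Rbm18, 0.39 for Stk11 with Casp1, 0.45 for Prkag2 with Sft2d1 and 0.50 for Prkab1 with Tceanc2. It was 0.66 for Cab39 with Gchfr and 0.70 for Prkag1 with Wdr35.

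Around the receptors, 10 of 13 listed genes (the hormone, adaptor proteins and related receptors of the PAQR family) were measured. In cafeteria animals 4 of them were higher and 6 lower, and the median was -0.0017. None passed the adjusted threshold, and 1 had an unadjusted p under 0.05, beside 4.08% of all genes. Adipoq, adiponectin itself, was not well above background, and Appl1, the adaptor of both receptors, had no probe under its name and was not measured. The adaptor Appl2 read -0.14, -0.022, -0.17 and 0.028 in controls and 0.097, -0.035, 0.29, 0.39 and 0.0027 in cafeteria animals. Its difference was 0.22 (SE 0.097, unadjusted p = 0.0429, adjusted p = 0.997 in limma), with overlapping groups. Paqr9 (0.063) and Paqr4 (0.065, with 0.029 on its second probe) followed. Paqr4 was -0.013 without control 1, and Paqr9 was 0.030 without control 7 and 0.0043 with slide as a block.

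Of the AMPK regulators, 12 of 13 were measured, 7 higher and 5 lower, with a median of 0.011 and no adjusted call. Prkag3, the remaining gamma subunit, was counted in this list and gave 0.0036 (SE 0.052). Fnip2, which with folliculin regulates AMPK and lysosomal signalling, was the 1 gene with an unadjusted p under 0.05 in limma, beside 4.08% of all genes. Its groups did not overlap, as was so for 1.27% of all probes (329). It read 0.12, 0.39, 0.45 and 0.066 in controls and 0.021, -0.0070, -0.67, -0.34 and -0.14 in cafeteria animals. The difference was -0.48 (SE 0.15, unadjusted p = 0.00857, adjusted p = 0.997 in limma), -0.37 to -0.55 with single animals left out and -0.25 (SE 0.15) with slide as a block. The upstream kinase Camkk2 gave -0.15 (SE 0.091) and Strada, the pseudokinase partner of LKB1, 0.10 (SE 0.067), neither beyond the spread. Camkk2 was -0.091 without cafeteria animal 1 and -0.25 with slide as a block, and Strada was 0.049 without control 4. With slide as a block 5 of the 12 regulators were higher and 7 lower, and the median was -0.074.

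The AMPK-related kinases, which LKB1 also switches on, gave 7 measured genes of 12, with Sik2 not well above background. There were 4 higher and 3 lower, the median was 0.0015, and 0 passed in limma at the adjusted threshold or at an unadjusted p under 0.05. The genes with the smallest p were Mark1 (0.23, SE 0.15), Nuak2 (-0.18, SE 0.13) and Snrk (0.082, SE 0.087). The second Mark1 probe also gave 0.23, but the 2 probes overlap on the genome, so it is not a separate measurement. Single animals moved all of them by over 1.5 times: Mark1 was 0.12 without cafeteria animal 7, Nuak2 -0.038 without control 1 and -0.27 without control 7, and Snrk 0.024 to 0.13 over the animals left out. A fit that blocked on slide had 2 higher and 5 lower. In that fit Sik1, a salt-inducible kinase chosen here because of its value, gave -0.87 (SE 0.16, unadjusted p = 0.00337, adjusted p = 1 in limma), beside -0.088 (SE 0.55) without the block. The blocked value rests on the 2 slides that held both diets, where it was -1.06 and -0.67, with 1 residual degree of freedom.

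Of 22 listed AMPK substrates, 18 were measured, 10 higher and 8 lower, with a median of 0.029 and no adjusted call. At an unadjusted p under 0.05 in limma there was 1 gene, beside 4.08% of all genes. This was Srebf2, the transcription factor of sterol synthesis, with -0.35 (SE 0.12, unadjusted p = 0.0167, adjusted p = 0.997 in limma). Its log2 ratios were 0.44, 0.0088, 0.11 and -0.10 in controls and -0.46, -0.0050, -0.31, -0.24 and -0.15 in cafeteria animals. The groups overlapped, and its second probe gave 0.026 (SE 0.053), so the probes disagreed. Acaca, acetyl-CoA carboxylase of fatty acid synthesis, gave -0.15 (SE 0.066, unadjusted p = 0.0503, adjusted p = 0.997 in limma) and -0.013 on a second probe. With slide as a block Acaca was -0.030 (SE 0.13). Mff, a mitochondrial fission factor, gave -0.17 (SE 0.11), which was -0.084 without control 4 and -0.26 without control 7. Ulk1, which starts autophagy, gave 0.070 (SE 0.076), which was 0.025 without control 7, 0.029 without cafeteria animal 10 and 0.11 without cafeteria animal 13. Acacb and Ppargc1a, known for muscle and other oxidative tissue, were not well above background. With slide as a block 8 substrates were higher and 10 lower, and the median was -0.017.

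Metabolic genes downstream of AMPK and adiponectin gave 8 measured of 12, 7 higher and 1 lower, with a median of 0.095 and no adjusted call. Of all genes, 45.2% were lower. With slide as a block 6 of the 8 were higher and 2 lower, and the median was 0.066. At an unadjusted p under 0.05 in limma there was 1 of the 8, Cpt1a, beside 4.08% of all genes. Cpt1a, which carries long-chain fatty acids into mitochondria, stood out. It read -0.35, -0.24, -0.52 and -0.54 in controls and 0.0026, 0.22, 0.0073, 0.27 and 0.11 in cafeteria animals, so that all 5 cafeteria animals were above all 4 controls. Groups did not overlap on 1.27% of all probes (329). The Cpt1a difference was 0.53 (SE 0.086, unadjusted p = 0.00011, adjusted p = 0.456 in limma), and it was 0.49 to 0.59 with single animals left out. Nampt, of NAD synthesis, gave 0.16 (SE 0.093), and 0.26 with slide as a block.

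Slc2a4, the insulin-responsive glucose transporter, gave -0.61 (SE 0.44) on one probe and -0.092 (SE 0.12) on the other, with control 4 at 1.32 and cafeteria animals 1 and 7 at -1.22 and -1.21 on the first. Without control 4 the first probe gave -0.19, and with slide as a block -0.28. Over all animals the first probe read -0.49, 1.32, -0.57 and -0.055 in controls and -1.22, -0.71, -1.21, 0.13 and 0.21 in cafeteria animals. The platelet list read -0.067, 1.09, -0.37 and 0.22 in controls and -0.62, -0.084, -0.79, 0.39 and 0.25 in cafeteria animals. The part of the platelet list was not tested. Ppara, the nuclear receptor linked to AdipoR2, and Lpl and Pdk4 were not well above background.

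**Figure D5:**
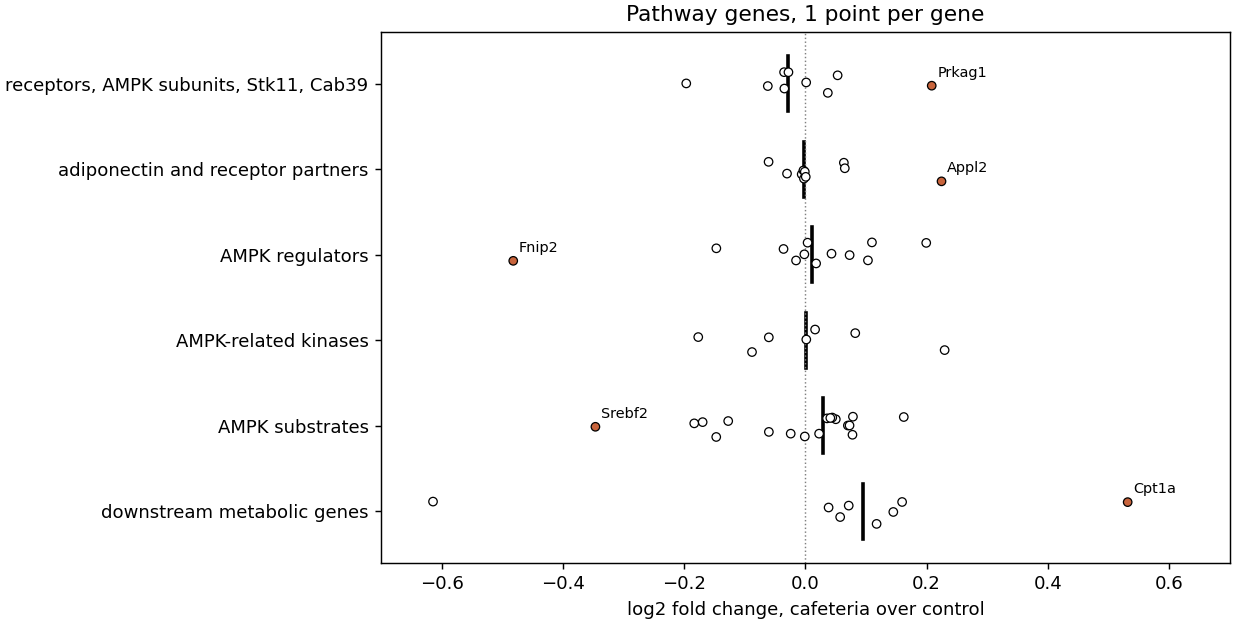
Log2 fold change of cafeteria over control for each measured gene, in the 9 receptor and AMPK genes and the 5 lists around them, with a bar at each median. Filled points are the genes at an unadjusted p under 0.05 (Prkag1, Appl2, Fnip2, Srebf2 and Cpt1a), none of which passed the adjusted threshold.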

How the data were processed

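The scanner files deposited by the authors give spot and background intensity for both dyes and, per the file headers, a log10 ratio with flags from Feature Extraction 9.5.1.1, with probe positions on rn4. The authors also deposited log2 values for 21466 of 45220 spots, which followed Cy5 (rank correlation 0.993 to 0.999, array medians 9.40 to 9.69), and what part the Cy3 pool had in them is not known. Per the labels, replicates are separate animals, and the authors dropped 1 control with too little RNA.

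From the intensities, background was corrected by normexp (offset 50), log2 ratios were normalized within arrays by loess, and outlier spots were left out. Probes with Cy5 well above background on at least 4 arrays were tested (25808 of 41012). The probe with the highest mean signal stood for a gene. Probes were named through RefSeq (19441 probes, 47.4%), otherwise by the file. Listed genes without a probe under their name could not be measured. In the 5 pathway lists, in the order above, 11 of 13, 12 of 13, 8 of 12, 20 of 22 and 11 of 12 had one. The arrays were compared by limma 3.58.1 with statmod 1.5.0 and data.table (version 1.17.8) in R 4.3.3 (7 residual and 2.94 prior degrees of freedom) and Benjamini-Hochberg adjustment over all probes; plots used Python 3.11.15 with matplotlib 3.10.9. Signal above background takes the place of depth, and the number of arrays limits the precision. Slides, named as the file headers give them, were tested as a block: the 9 arrays lay on 7 slides.

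The fit was tested on simulated data, with 50 of 25723 probes changed at each size. It recovered 14% at a log2 size of 0.25, 44% at 0.5, 94% at 1 and 100% at 2, with 3 false calls. The simulated noise was normal and independent between probes, which that of the arrays need not be. More probes were changed in it than passed on the arrays, and this eases the adjusted threshold. These shares are therefore not the recovery on the arrays themselves, which was not tested. There 2 of 25808 probes passed, and Cpt1a, at a log2 fold change of 0.53, had an adjusted p of 0.456 in limma. All members are named, as are the key genes and up to 3 genes of smallest p in each list. The 2 genes of highest correlation with each member are also named. Members and lists were chosen with earlier results of these data known. Alternatives covered background, scaling, filters, flags, slide, replicate number, array weights, the prior, the probe for a gene and each animal left out.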

Additional observations from a re-analysis of the deposited data

Results flagged for a closer look

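Of 46 groups of 4 or 5 animals over the probes named, 1 held an animal far from the others, where chance marks about 1 in 20. Control 4 read 0.25 for Cab39, and its gap to the next control was 0.858 of the control range. Without it the difference between diets for Cab39 was 0.062.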

How the results depend on the processing

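No member probe passed the adjusted threshold under any alternative, and the lowest adjusted p was 0.39. The all-probe count of 2 fell to 0 without background correction, with median centring, the scanner's log ratio, Cy5 alone, the authors' values as deposited or centred, slide as a block, a prior that was trended and robust, and weighted arrays (array weights), and it was 0 to 2 with single animals left out. Member probes at an unadjusted p under 0.05 fell from 1 to 0 with median centring, the scanner's ratio, slide as a block and array weights. Replicate numbers did not pair the animals (correlations of same-numbered deviations -0.048, 0.11, 0.099 and -0.15, and none highest with its own number). With the number as a replicate block both counts were 0 and Stk11 was 0.0028. The member median was 0.14 on the authors' values, where the median of all probes was 0.13.

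Signs turned as follows. Cab39 was -0.032 without background correction, -0.10 with median centring, -0.047 on the scanner's ratio and -0.050 with slide as a block. Adipor2 was 0.014 on the scanner's ratio, 0.14 and 0.021 on the authors' values as deposited and centred, and 0.028 with array weights. Prkab1 was 0.088 on the authors' values and 0.27 with slide as a block, where Prkaa1 was -0.061. Stk11 was 0.0040 and Paqr4 -0.0075 with array weights, Nuak2 was 0.039 on Cy5 alone, and Acaca and Mff were 0.035 and 0.013 on the authors' values. Prkab1 minus Prkab2 was -0.094 with median centring. With single animals left out, Adipor2 was -0.084 to 0.017, Cab39 -0.038 to 0.062, Paqr4 -0.013 to 0.13, Prkab1 -0.12 to 0.039, Stk11 -0.13 to 0.0048 and Prkab1 minus Prkab2 -0.10 to 0.11. The cause was not tested. Scaling between arrays left the log2 ratios as they were, by construction. Low signal limits Prkaa2, Prkab2 and the second Stk11 probe.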
